A study of Saccharomyces cerevisiae with 10 samples.

Results

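The mRNA profile of the *rpb1-84* mutant of *Saccharomyces cerevisiae* is described from 4 of the 10 RNA-Seq libraries of the study, the 2 libraries labelled *rpb1-84* and the 2 labelled WT of the *rrp6* experiment. The rows described are those whose identifier starts with the systematic name of an open reading frame (ORF), 5376 of the 10431 rows counted, and 4995 of them had enough counts to be tested. The *rpb1-84* strain is MATalpha with the alleles *his3*-delta200, *leu2-3,112*, *trp1*-delta63 and *ura3-52*, its chromosomal *RPB1* is replaced (*rpb1*-delta187::*HIS3*), its only *RPB1* gene is the *rpb1-84* copy on a multicopy *LEU2* plasmid, and it also carries a TAP tag on *RPB4* marked with *TRP1*. The WT strain shares all of these alleles except the tag, and its plasmid carries the normal *RPB1*. A second pair of strains was set beside this one. It consists of *rpb1-84 rrp6∆* and *rrp6∆*, 2 libraries each, which share the same alleles, carry the mutant or the normal plasmid, lack the tag and have *RRP6* replaced by KanMX4. The last 2 libraries, labelled *rpb4∆*, come from a strain of another background, listed as MATa with *his3*-delta1, *leu2*-delta0, *met15*-delta0, *ura3*-delta0 and *rpb4∆*::kanMX4, and serve here for levels only. All cultures were grown in rich YPD medium at 30 °C to an OD600 of about 0.8, and replicates were independent cultures. The *rpb1-84* libraries and the WT libraries belong to different experiments, and the study set *rpb1-84* against WT libraries published earlier, which are not analysed here. In the comparison below, the *rpb1-84* allele, the *RPB4* tag and the experiment therefore cannot be told apart.

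RNA polymerase II, the enzyme that makes all mRNA, is built from several subunits around its largest one, Rpb1. The foot is a conserved domain of Rpb1 near the site where Rpb6 and the Rpb4/Rpb7 dimer join the enzyme, and *rpb1-84* is a mutation of the foot that disturbs this assembly. Rpb4 and Rpb7 also leave the nucleus with mRNA and take part in its translation and decay. The libraries hold tags from the 3′ ends of polyadenylated RNA (QuantSeq), so that the count of a row does not grow with the length of its RNA. The tables give a count per annotated row and not the place of the tags within it, and a level, given as CPM (counts per 1000000 counts of the library), is a share of the library, which does not show a change in total mRNA per cell.

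The *rpb1-84* libraries held 3574066 and 7268211 counts and the WT libraries 3165891 and 2727771, with 95.4% to 96.4% of them on protein-coding rows. *RPB4*, the tagged gene (YJL140W, chromosome X, 150961 to 151626, R64 build), had 9.23 and 8.12 CPM in *rpb1-84*, against 191 and 186 CPM in WT. It had 208 and 201 CPM in *rpb1-84 rrp6∆*, against 177 and 182 CPM in *rrp6∆*, and 3.62 and 2.83 CPM in the libraries labelled *rpb4∆*. *TRP1*, named as the marker of the tag, had 2 counts in each *rpb1-84* library and 20 and 8 counts in WT. *RPO21*, the gene of Rpb1, had 2898 and 3086 CPM in *rpb1-84*, against 2463 and 2247 CPM in WT, and *LEU2*, the plasmid marker, had 4647 and 4486 CPM in *rpb1-84*, against 2721 and 2446 CPM in WT. Of the alpha cell markers, *STE3* and *SAG1* were well counted in both strains, while *MF(ALPHA)1*, a pheromone gene, had only 8 counts over the *rpb1-84* libraries and 11 over WT. The a cell markers *MFA1*, *MFA2* and *AGA2* were near 0, with 5, 4 and 7 counts over the *rpb1-84* libraries and 1, 2 and 1 over WT. In the libraries labelled *rpb4∆*, whose strain is listed as MATa, *STE2* had 3 and 1 counts and the alpha cell gene *SAG1* 175 and 118. Tags on *RRP6* were still counted after its replacement, 290 and 176 of them for *rpb1-84 rrp6∆* and 572 and 548 for *rrp6∆*, against 231 and 171 for WT, and without the position of the tags this does not check the deletion. Not every abundant mRNA was seen by its row, since *PGK1*, a glycolytic gene, had 42.5 and 49.5 CPM in *rpb1-84*, against 49 and 45.1 CPM in WT.

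Across the tested rows, log2(CPM + 1) correlated between replicates with Pearson r of 0.985 to 0.994 over the 5 strains. Between an *rpb1-84* library and a library of any other strain it was 0.831 to 0.883 (16 pairs), and among libraries of the other strains, WT included, it was 0.881 to 0.976 (24 pairs). The *rpb1-84* libraries stood apart from every other strain, also from *rpb1-84 rrp6∆*, which carries the same allele. These correlations are across genes, which are not independent replicates. In 48.7% of the tested rows both *rpb1-84* libraries lay outside the range of the 8 other libraries, against 14.1% for the WT libraries. No result below can be given without the *rpb1-84* libraries, and their part in it, beyond the allele, was not tested.

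In *rpb1-84*, 779 of the 4995 protein-coding rows tested were higher than in WT (15.6%) and 795 were lower (15.9%), at a change above 2-fold and an adjusted p below 0.1 from edgeR's quasi-likelihood test. These 2 shares are the background for the gene groups below, and a row past both thresholds is called changed. With the adjusted p alone, 1912 rows were higher (38.3%) and 1784 lower (35.7%). The median log2 fold change was 0.020, with quartiles of -0.61 and 0.68. It was -0.000654 with total counts in place of TMM scaling, and neither scaling can show a shift shared by all rows. The decreases reached further than the increases, since 86 rows passed with a log2 fold change below -3 and only 11 with one above 3. The 2 against 2 libraries did not overlap in 4265 rows (85.4%). With 2 libraries a strain, an exact permutation test of a single gene cannot give a two-sided p below 0.333, so the calls rest on the spread shared across genes in the fit.

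The largest decreases left mRNAs that were well counted in WT almost uncounted in *rpb1-84*. *UTH1*, a SUN family gene of the cell wall and mitochondria (YKR042W, chromosome XI, 519527 to 520624), had 7.83 and 6.05 CPM in *rpb1-84*, against 1114 and 1093 CPM in WT, a log2 fold change of -7.34 ± 0.13 (SE, edgeR adjusted p = 2.17e-20). *CWP2*, which encodes a major mannoprotein of the cell wall (YKL096W-A, chromosome XI, 259253 to 259531), had 1.68 and 0.55 CPM in *rpb1-84*, against 193 and 139 CPM in WT (-7.43 ± 0.26, edgeR adjusted p = 1.41e-15). *CDC14*, the phosphatase of mitotic exit, had 1.12 and 0.688 CPM in *rpb1-84*, against 55.6 and 70.8 CPM in WT (-6.17 ± 0.28). Both *rpb1-84* libraries were low in all 3 genes and lay far below WT. In *rpb1-84 rrp6∆* the same 3 genes stayed well counted. *UTH1* had 1399 and 1483 CPM in *rpb1-84 rrp6∆*, against 2023 and 1800 CPM in *rrp6∆*, *CWP2* had 60.3 and 51.2 CPM in *rpb1-84 rrp6∆*, against 216 and 162 CPM in *rrp6∆*, and *CDC14* had 29.9 and 26.3 CPM in *rpb1-84 rrp6∆* (log2 fold change -0.63 over *rrp6∆*).

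Proteins of very different roles made up the rest of the 12 largest decreases. *RPN8*, a subunit of the proteasome lid, had 26.3 and 11.1 CPM in *rpb1-84*, against 493 and 512 CPM in WT (-4.88 ± 0.19). *DID4*, an ESCRT-III subunit of endosomal sorting, had 5.88 and 1.93 CPM in *rpb1-84*, against 96 and 88 CPM in WT (-4.78 ± 0.24), and *HEM3*, an enzyme of heme synthesis, had 5.6 and 5.23 CPM in *rpb1-84*, against 94.8 and 103 CPM in WT (-4.18 ± 0.17). In *RPN8* and *DID4* the *rpb1-84* replicates differed from each other by more than 2-fold, and both were still far below WT. Leaving out each library in turn gave *RPN8* between -5.43 and -4.19, *DID4* between -5.50 and -3.90 and *CWP2* between -8.11 and -6.55. *RNH70*, the Rex1 exonuclease that trims small structured RNAs, had 2.52 and 2.89 CPM in *rpb1-84*, against 72 and 64.5 CPM in WT (-4.60 ± 0.21), and *BUD17*, a pyridoxal kinase gene, had 1.68 and 1.1 CPM in *rpb1-84*, against 33.5 and 36.7 CPM in WT (-4.71 ± 0.29). *GPN2*, a GTPase needed to bring RNA polymerase II into the nucleus, had 0.839 and 1.65 CPM in *rpb1-84*, against 25.9 and 24.2 CPM in WT (-4.14 ± 0.31). It lies 360 bases from *RPN8* on chromosome XV, with the 2 genes running away from each other, and both fell. In *rpb1-84 rrp6∆* against *rrp6∆* the log2 fold changes were -0.14 for *RPN8* and 0.75 for *GPN2*, and neither was called.

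*RPB4* and *YUR1* formed another pair of neighbours that fell together. *YUR1*, a mannosyltransferase gene of the Golgi, lies 86 bases past the end of *RPB4* and runs towards it. *YUR1* had 0.839 and 0.963 CPM in *rpb1-84*, against 21.8 and 20.5 CPM in WT (-4.46 ± 0.34), and *RPB4* had a log2 fold change of -4.45 ± 0.14 (edgeR adjusted p = 1.57e-16). In the strains without the tag, *YUR1* had 20.1 and 16.3 CPM in *rpb1-84 rrp6∆*, against 20.0 and 20.1 CPM in *rrp6∆*, and it was lower in the libraries labelled *rpb4∆*, with 3.11 and 7.77 CPM. A C-terminal tag and its marker are placed at the stop codon, so the last 30 bases of the coding sequence of both genes are shown, read 5′ to 3′ along each gene from R64 with the stop codon in capitals.
*RPB4* (chrX:151597-151626, plus strand): gaattgtcaaacctagaaacactctatTAA
*YUR1* (chrX:151713-151742, minus strand): ttcttaaaagaagagcaagacgagattTAA
The 2 stop codons face each other across the 86 bases between the genes. The part of the tag in these 2 values cannot be told apart from that of the allele.

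Among the 12 largest increases, some genes were already abundant in WT. *CBF5*, the pseudouridine synthase of H/ACA snoRNPs (YLR175W, chromosome XII, 506134 to 507585), had 3540 and 3988 CPM in *rpb1-84*, against 381 and 389 CPM in WT (3.31 ± 0.082, edgeR adjusted p = 6.69e-18). *RPN2*, a base subunit of the proteasome (YIL075C, chromosome IX, 217863 to 220700), had 2856 and 3220 CPM in *rpb1-84*, against 385 and 390.1 CPM in WT (2.99 ± 0.081). *RGI1*, a gene of energy metabolism under respiratory growth (YER067W, chromosome V, 292066 to 292551), had 452 and 600.4 CPM in *rpb1-84*, against 29.4 and 28.2 CPM in WT (4.21 ± 0.14, edgeR adjusted p = 5.5e-16), the largest increase named by the rule. The rule takes only genes whose strains do not overlap, and in these 3 genes the replicates of *rpb1-84* differed by far less than the strains.

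The other increases also came from several pathways. *MNN4*, a regulator of mannose phosphorylation in the cell wall, had 602 and 711 CPM in *rpb1-84*, against 46.4 and 49.5 CPM in WT (3.80 ± 0.11), and *AMS1*, the vacuolar mannosidase, had 38.9 and 52.7 CPM in *rpb1-84*, against 7.58 and 3.3 CPM in WT (3.08 ± 0.26). *HSP30*, a stress protein of the plasma membrane, had 31.3 and 51.9 CPM in *rpb1-84*, against 4.42 and 6.23 CPM in WT (3.05 ± 0.28). *AMS1* and *HSP30* were the least even between replicates, and *AMS1* ranged from 2.66 to 3.84 with 1 library left out. *JAC1*, a mitochondrial co-chaperone of iron-sulfur cluster assembly, had 57.1 and 63.8 CPM in *rpb1-84*, against 7.26 and 5.87 CPM in WT (3.22 ± 0.19), and *CSN9*, a subunit of the COP9 signalosome, had 42.8 and 56 CPM in *rpb1-84*, against 4.11 and 5.13 CPM in WT (3.47 ± 0.24). *LAM6*, which moves sterols between membranes, had 214 and 253 CPM in *rpb1-84*, against 28.7 and 33 CPM in WT (2.95 ± 0.13). *DIA1*, *YHR112C* and *CPP3* completed the 12, with log2 fold changes of 3.15, 3.07 and 2.93. Of all rows called higher, 697 (89.5%) had both *rpb1-84* libraries above all 8 other libraries of the series. Of those called lower, 629 (79.1%) had both below all 8. These rows were chosen for a difference between *rpb1-84* and WT, and over all tested rows the share outside the other 8 was 48.7%. The WT libraries were also extreme in part of them. Both WT libraries lay below all 8 others in 89 rows called higher, and above all 8 in 243 rows called lower.

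**Figure D1:**
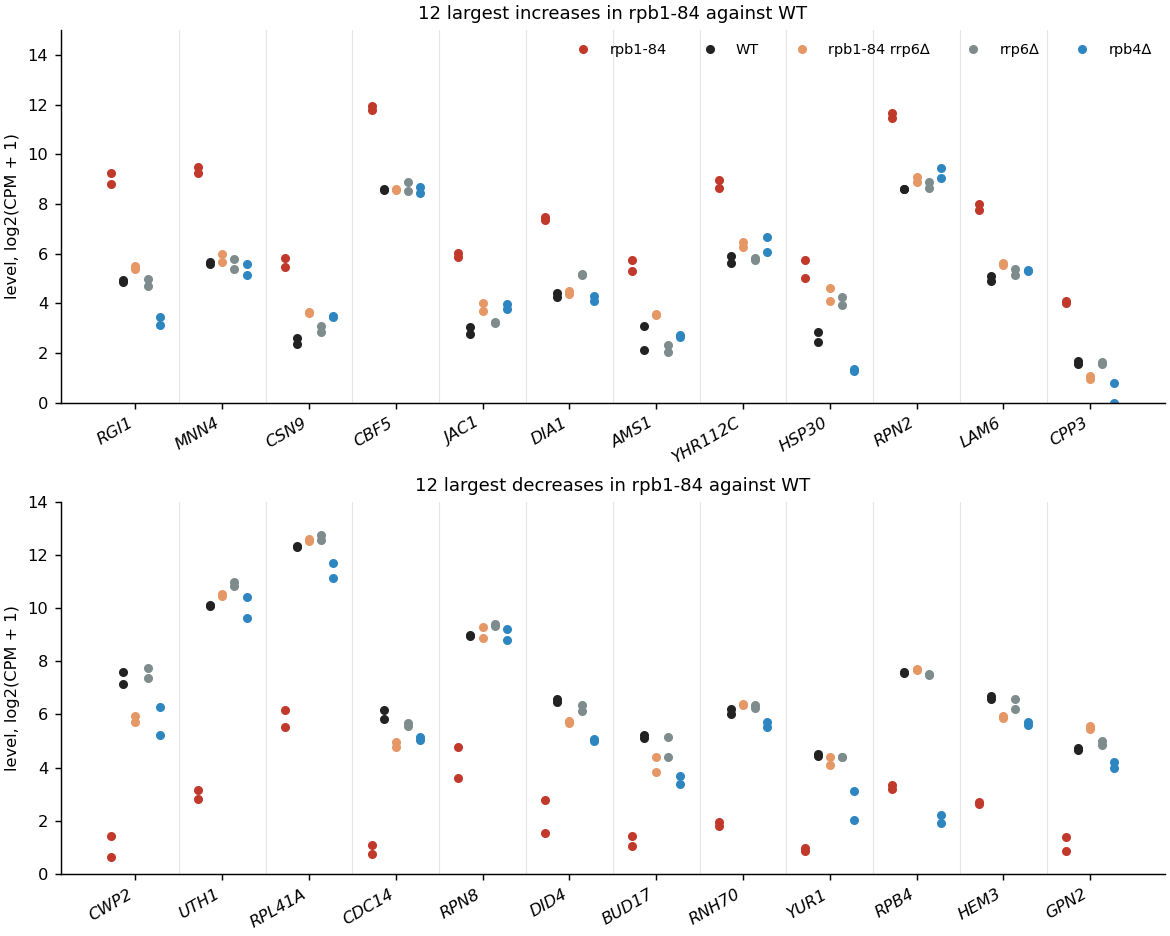
Level of the 12 genes with the largest increase (upper panel) and the 12 with the largest decrease (lower panel) in *rpb1-84* against WT, as log2(CPM + 1) in each of the 10 libraries, 1 point per library and 2 per strain. The *rpb1-84* points lie above those of all other strains in the upper panel and below them in the lower panel, except for *RPB4*, where the *rpb4∆* libraries are lower still.

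The gene lists that follow were compiled from general knowledge of yeast pathways, and each is described by its called members beside the background shares of 15.6% higher and 15.9% lower and the median of 0.020. Of the 12 subunits of RNA polymerase II, 2 were higher and 3 lower (median 0.21). The 3 rows that fell were *RPB7*, *RPO26* and the tagged gene *RPB4*, where the part of the tag cannot be told apart. These are mRNA levels and do not show the assembly of the proteins. *RPB7* had 0 and 8 counts in *rpb1-84* and 23 and 24 in WT, a log2 fold change of -3.38 ± 0.54 that rests on few counts and was -7.64 without *rpb1-84* replicate 2, where no count remains. *RPO26*, which encodes Rpb6, had 88.7 and 74.6 CPM in *rpb1-84*, against 197 and 223 CPM in WT (-1.36 ± 0.11, edgeR adjusted p = 6.44e-10). *RPO26* was also below WT in *rrp6∆* (129 and 151 CPM) and in *rpb1-84 rrp6∆* (132 and 119 CPM). In the libraries labelled *rpb4∆* it had 232 and 203 CPM. The 2 that rose were *RPB11*, with 431 and 429 CPM in *rpb1-84*, against 117 and 119.5 CPM in WT (1.88 ± 0.092), and *RPB5* (1.19). *RPO21* was higher by 0.37, below the 2-fold threshold.

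Factors that assemble RNA polymerase II and carry it into the nucleus were split, with 3 of 13 higher and 2 lower (median 0.30). Besides *GPN2*, the low one was *RTP1*, with 23.8 and 17.2 CPM in *rpb1-84*, against 58.8 and 65.6 CPM in WT (-1.63 ± 0.16). *RVB1*, a subunit of the R2TP assembly machinery, had a log2 fold change of 2.02 ± 0.1, and *NPA3*, another GPN GTPase, had a log2 fold change of 1.49. *RTR1*, a phosphatase of the C-terminal domain that helps to import the enzyme, had 26 and 33.4 CPM in *rpb1-84*, against 19.3 and 22.7 CPM in WT (0.56), short of the threshold.

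Genes of transcription termination and of the modification of the C-terminal domain were more often lower than higher, with 7 of 27 lower and 1 higher (median -0.06). The count of higher members was 4 without WT replicate 2 and 2 without either *rpb1-84* library. The members that fell belong to cleavage and polyadenylation and to the torpedo pathway. *PAP1*, the poly(A) polymerase, had 1.96 and 2.06 CPM in *rpb1-84*, against 20.5 and 19.1 CPM in WT (-3.25 ± 0.3), and *RAI1*, the partner of the Rat1 exonuclease, had 4.76 and 1.79 CPM in *rpb1-84*, against 22.1 and 21.6 CPM in WT (-2.92 ± 0.32). *GLC7*, a phosphatase that acts with the cleavage factor, had 39.2 and 34.1 CPM in *rpb1-84*, against 196 and 207 CPM in WT (-2.46 ± 0.11), and *RAT1* and *YSH1*, the nucleases of this step, had log2 fold changes of -1.24 and -1.69. The 3 proteins of the Nrd1-Nab3-Sen1 complex, which ends short noncoding transcripts, were not called. *NRD1* had 67.4 and 94.8 CPM in *rpb1-84*, against 84.7 and 81.4 CPM in WT (0.02 ± 0.13, edgeR adjusted p = 0.926), and its sign turned under some of the alternatives. *NAB3* had a log2 fold change of 0.26 and *SEN1* of -0.36.

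The nuclear exosome and its cofactors, which trim and degrade RNA in the nucleus, had 4 of 18 members higher and 2 lower (median 0.39). *LRP1*, the partner of Rrp6, had 354 and 413 CPM in *rpb1-84*, against 117 and 116 CPM in WT (1.74 ± 0.099), while *TRF5*, a poly(A) polymerase of the TRAMP complex, had 5.6 and 2.06 CPM in *rpb1-84*, against 15.8 and 21.6 CPM in WT (-2.46 ± 0.34). *RRP6* itself had 76.7 and 81.3 CPM in *rpb1-84*, against 73 and 62.7 CPM in WT (0.24, not called). In cytoplasmic mRNA decay, 8 of 34 members were lower and 4 higher (median -0.43). *SKI7*, which links the exosome to the Ski complex, had 0.28 and 0.826 CPM in *rpb1-84*, against 13.3 and 11.7 CPM in WT (-4.21 ± 0.44). The deadenylase genes *NOT3* and *POP2* fell as well, with 7.83 and 4.54 CPM in *rpb1-84*, against 55 and 45.8 CPM in WT for *NOT3*. *POP2* had 1.12 and 1.93 CPM in *rpb1-84*, against 14.8 and 12.5 CPM in WT.

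Chromatin remodelling and silencing held the largest share of lower members among the lists with more than 30 rows, 19 of 53, with 4 higher (median -0.67). *ISW1*, a nucleosome-spacing ATPase, had 3.92 and 6.47 CPM in *rpb1-84*, against 87.8 and 99 CPM in WT (-4.04 ± 0.18, edgeR adjusted p = 7.82e-14). *RSC9*, of the RSC remodeller, had 0.28 and 0.688 CPM in *rpb1-84*, against 12 and 8.8 CPM in WT (-4.16 ± 0.48), and *ADA2*, of the SAGA acetyltransferase, had 0.839 and 0.688 CPM in *rpb1-84*, against 10.7 and 9.9 CPM in WT (-3.73 ± 0.43). Both *rpb1-84* libraries were below both WT libraries in these 3 genes, and *RSC9* and *ADA2* were lightly counted also in WT. *RSC8*, another RSC subunit, rose (1.43), as did *SNF5* of the SWI/SNF remodeller (1.30). Of the histone genes, 2 of 11 were lower and none higher (median -0.44). *HHT1*, one of the genes of histone H3, had 234 and 244 CPM in *rpb1-84*, against 592 and 668 CPM in WT (-1.38 ± 0.087), and *HHT2*, its copy, had a log2 fold change of 0.52. The general transcription factors and Mediator were even, with 7 of 51 higher and 7 lower, and the elongation factors had 3 of 28 higher and 7 lower.

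Of the 1501 rows in the 52 lists that were tested, 498 were called in either direction, where the background is 31.5%.

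**Figure D2:**
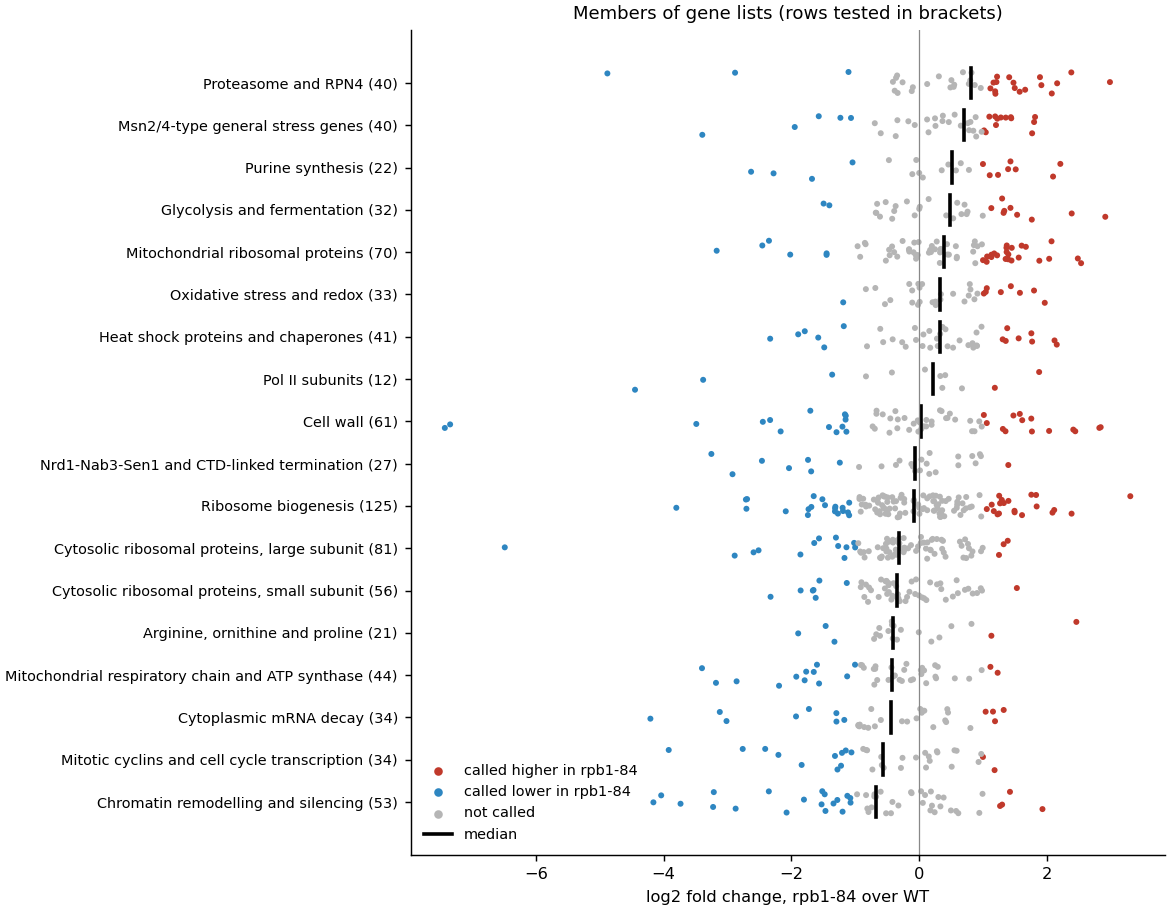
Log2 fold change of *rpb1-84* over WT for each tested member of 18 gene lists, 1 point per row, with red for rows called higher, blue for rows called lower, grey for rows not called, and a black bar at the median of the list. The medians run from 0.81 for the proteasome list to -0.67 for chromatin remodelling and silencing, and every list shown has members on both sides of 0.

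Proteasome genes were more often higher than lower, with 17 of 40 rows higher and 3 lower, and their median of 0.81 was the highest of the lists with more than 15 rows. The proteasome degrades ubiquitin-tagged proteins, and in yeast its genes share a promoter element bound by the activator Rpn4. *RPN4* itself did not pass the test, with 75 and 79 CPM in *rpb1-84*, against 78.3 and 89.5 CPM in WT (-0.10 ± 0.11, edgeR adjusted p = 0.468). The element GGTGGCAAA, searched on both strands in the 500 bases before each start codon, was present in 29 of the 40 rows of the list and in 1.9% of all 4892 promoters read from R64. The promoters of 3 genes that rose and 2 that fell are shown, each as 30 bases with the element in capitals, to show that genes moving in opposite directions carry the same letters.
*RPN2* (chrIX:220800-220829, minus strand): atttattttcGGTGGCAAAactggatacat
*PUP2* (chrVII:999225-999254, minus strand): aaccaagaccGGTGGCAAAagagtaaccta
*PRE10* (chrXV:1018855-1018884, minus strand): cctctaaatcGGTGGCAAAaataagaaagt
*RPT2* (chrIV:437906-437935, plus strand): gtttttctccGGTGGCAAAtgtctcttttc
*RPN1* (chrVIII:164837-164866, minus strand): tgtgttttacGGTGGCAAAaggcgagcacg
*PUP2*, a core particle subunit, had 505 and 514 CPM in *rpb1-84*, against 114 and 116 CPM in WT (2.16 ± 0.091), and *PRE10*, also of the core, had 724 and 821 CPM in *rpb1-84*, against 185 and 186 CPM in WT (2.08 ± 0.089). *RPT2*, an ATPase of the base, had 8.11 and 8.8 CPM in *rpb1-84*, against 70.8 and 56.8 CPM in WT (-2.88 ± 0.18), and *RPN1*, a scaffold of the base, had 211 and 150.4 CPM in *rpb1-84*, against 388 and 391 CPM in WT (-1.10 ± 0.12). *RPN8* carried no match in this window. Of the 29 rows with the element 13 were higher and 2 lower, and of the 11 without it 4 were higher and 1 lower. A match of letters is a description and does not show binding. In the second pair of strains no member of this list was called, where 4.05% of all rows were, and the median was 0.38, against 0.149 over all rows.

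**Figure D3:**
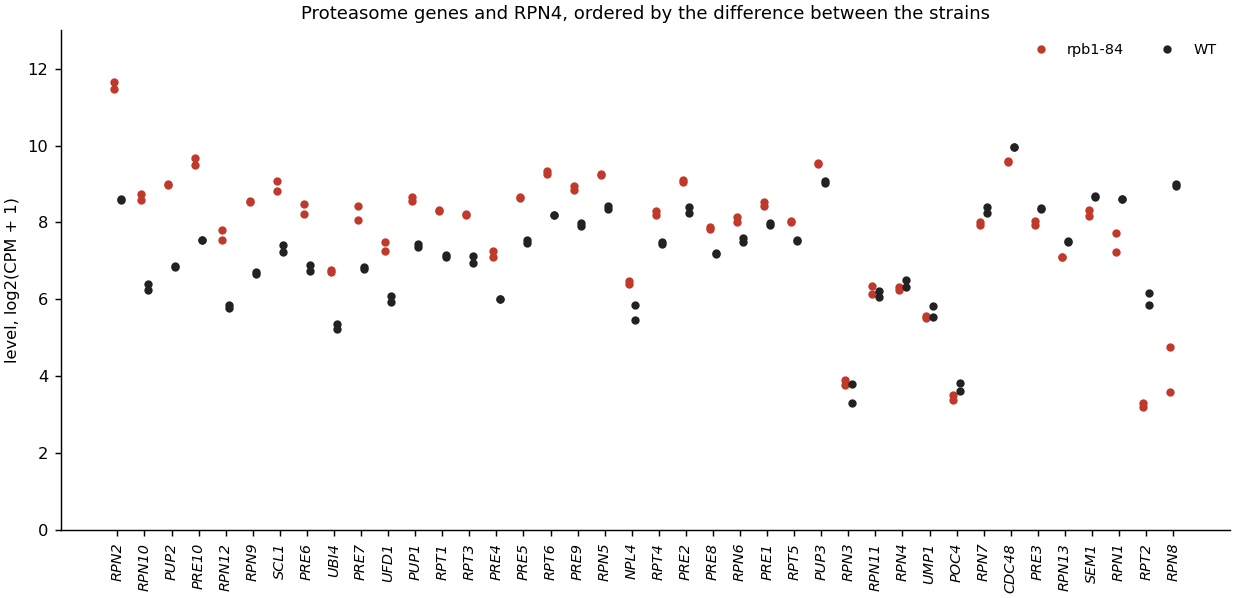
Level of the 40 rows of the proteasome list as log2(CPM + 1), with 2 *rpb1-84* libraries (red) and 2 WT libraries (black) per gene, ordered by fold change. The *rpb1-84* points lie above WT at the left, from *RPN2* on, and below WT at the right, where *RPT2* and *RPN8* are the lowest.

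Mitochondrial ribosomal proteins and the respiratory chain, both needed for oxidative phosphorylation, leaned in opposite directions. Of the 70 mitochondrial ribosomal rows, 23 were higher and 6 lower (median 0.39). *MRPS16* had 1036 and 1209 CPM in *rpb1-84*, against 196 and 210.1 CPM in WT (2.49 ± 0.091), and *MRPS8* had 76.1 and 87.6 CPM in *rpb1-84*, against 17.7 and 10.6 CPM in WT (2.54 ± 0.17), while *MRP51*, a protein of the same small subunit, had 4.76 and 3.44 CPM in *rpb1-84*, against 35.7 and 35.9 CPM in WT (-3.17 ± 0.23). Of the 44 rows of the respiratory chain and ATP synthase, 12 were lower and 2 higher (median -0.42). *HAP4*, the activator subunit that turns on respiratory genes, had 17.4 and 15.4 CPM in *rpb1-84*, against 171 and 174 CPM in WT (-3.40 ± 0.12, edgeR adjusted p = 2.81e-15). *ATP1*, a subunit of ATP synthase, had 134 and 147 CPM in *rpb1-84*, against 1317 and 1272 CPM in WT (-3.18 ± 0.086), and *SDH1*, of succinate dehydrogenase, had 24.3 and 13.8 CPM in *rpb1-84*, against 129.8 and 131 CPM in WT (-2.86 ± 0.16). These genes fell by far more than the replicates differed. In the TCA cycle 5 of 21 rows were lower and 3 higher, with *MDH1* at 27.1 and 25.9 CPM in *rpb1-84*, against 159 and 176 CPM in WT. In *rpb1-84 rrp6∆* against *rrp6∆* the respiratory chain had 2 members higher and none lower, near the shares of all rows there (2.11% higher and 1.94% lower).

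Cytosolic ribosomal protein genes had medians below 0, -0.34 for the small and -0.31 for the large subunit. Of the 56 small subunit rows 7 were lower and 1 higher, and of the 81 large subunit rows 13 were lower and 3 higher. The lower members were about as frequent as in the background and the higher ones less so. The counts of higher members were the less stable ones, with 4 for the small subunit without *rpb1-84* replicate 2, 2 without WT replicate 1, and 5 for the large subunit without WT replicate 2. *RPS20* had 475 and 457 CPM in *rpb1-84*, against 2320 and 2414 CPM in WT (-2.33 ± 0.076), and *RPS28B* had 431 and 410.1 CPM in *rpb1-84*, against 1569 and 1510 CPM in WT (-1.85 ± 0.077), while its copy *RPS28A* had 3951 and 3189 CPM in *rpb1-84*, against 3999 and 4030 CPM in WT (-0.15). *RPL15A* had 217 and 223 CPM in *rpb1-84*, against 1604 and 1707 CPM in WT (-2.89 ± 0.081), and its copy *RPL15B* had 109.7 and 119 CPM in *rpb1-84*, against 67.3 and 77 CPM in WT (0.70). Copies of 1 protein thus did not move alike, and reads that fit both copies could have been split between them in counting.

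*RPL41A* and *RPL41B*, which encode the same very short protein of the large subunit, were the extreme case. *RPL41A* (YDL184C, chromosome IV, 130407 to 130484) had 71.3 and 44.9 CPM in *rpb1-84*, against 5066 and 5111 CPM in WT (-6.49 ± 0.14, edgeR adjusted p = 7.32e-19), and *RPL41B* (YDL133C-A, chromosome IV, 221724 to 221801) had 1294 and 1388 CPM in *rpb1-84*, against 8418 and 7982 CPM in WT (-2.59 ± 0.071). Both were low in *rpb1-84* and high in WT, *RPL41A* far more so. Their coding sequences of 78 bases differ at 1 base, and the last 30 bases, with the stop codon in capitals, are the same.
*RPL41A* (chrIV:130407-130436, minus strand): agacggaaggtgagagccagatccaaaTAA
*RPL41B* (chrIV:221724-221753, minus strand): agacggaaggtgagagccagatccaaaTAA
The 2 values are uncertain as values of single genes for this reason. Ribosome biogenesis factors did not lean either way, with 20 of 125 rows higher and 20 lower (median -0.08). Among them *CBF5* rose most, and *NOP8* had 10.1 and 9.77 CPM in *rpb1-84*, against 64.8 and 66.7 CPM in WT (-2.71 ± 0.16). In translation factors 10 of 43 rows were lower and 5 higher, and *PAB1*, the poly(A)-binding protein, had 319 and 315 CPM in *rpb1-84*, against 1945 and 1818 CPM in WT (-2.55 ± 0.078).

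Genes of the general stress response driven by Msn2 and Msn4 were more often higher, with 13 of 40 rows higher and 5 lower (median 0.71). *STF2* had 458 and 481 CPM in *rpb1-84*, against 135 and 135 CPM in WT (1.82 ± 0.09), and *HSP42*, a small heat shock protein, had a log2 fold change of 1.77. *HSP12*, one of the strongest genes of this response, went the other way with 26.6 and 29 CPM in *rpb1-84*, against 274 and 325 CPM in WT (-3.39 ± 0.12, edgeR adjusted p = 1.35e-15), and so did *HOR7*, with 644 and 785 CPM in *rpb1-84*, against 2725 and 2868 CPM in WT. Of the heat shock proteins and chaperones 8 of 41 rows were higher and 6 lower, with 13 higher without *rpb1-84* replicate 1. *SIS1*, an Hsp40 co-chaperone, had 251 and 310.1 CPM in *rpb1-84*, against 67.9 and 63.1 CPM in WT (2.12 ± 0.12), and *ZUO1*, of the ribosome-bound chaperone, had 2431 and 2484 CPM in *rpb1-84*, against 549.9 and 567 CPM in WT (2.16 ± 0.074). In oxidative stress and redox 8 of 33 rows were higher and 1 lower, the lower one being *SKN7* (-1.19), which was no longer called without *rpb1-84* replicate 2.

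Of the 32 rows of glycolysis and fermentation 9 were higher and 2 lower (median 0.48). *GPM2*, a phosphoglycerate mutase paralogue, had 26.6 and 37.8 CPM in *rpb1-84*, against 3.79 and 5.13 CPM in WT (2.92 ± 0.27), and the row of *GLK1*, glucokinase, which it shares with YCL042W, had 979 and 1026 CPM in *rpb1-84*, against 192 and 195 CPM in WT (2.39 ± 0.084). In hexose transport and sensing 6 of 14 rows were higher and 1 lower, the lower count being 0 without WT replicate 2 or *rpb1-84* replicate 1 and 2 without *rpb1-84* replicate 2. *HXT3*, a low-affinity transporter, had 2069 and 2213 CPM in *rpb1-84*, against 723 and 674 CPM in WT (1.64 ± 0.076), and *MTH1*, a regulator of the hexose transporters, had 38.6 and 40.7 CPM in *rpb1-84*, against 7.26 and 7.33 CPM in WT (2.46 ± 0.2). Storage carbohydrates had 4 of 19 rows higher and 2 lower, with *GLG1*, which primes glycogen, at 933 and 949 CPM in *rpb1-84*, against 3379 and 3326 CPM in WT (-1.81).

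In lysine synthesis 3 of 11 rows were lower and 1 higher. *LYS20*, the homocitrate synthase at the start of the pathway, had 58.8 and 54.5 CPM in *rpb1-84*, against 281 and 338 CPM in WT (-2.44 ± 0.11, edgeR adjusted p = 8.38e-14), and *LYS1*, at its end, had 89.8 and 79.1 CPM in *rpb1-84*, against 915 and 945 CPM in WT (-3.45 ± 0.094), while *LYS9* had 3172 and 3053 CPM in *rpb1-84*, against 1487 and 1486 CPM in WT (1.09 ± 0.07). Branched-chain synthesis had 2 of 14 lower and none higher (*LEU4*, with 232 and 217 CPM in *rpb1-84*, against 623 and 659.9 CPM in WT, and *LEU9*, with 66 and 65.8 CPM in *rpb1-84*, against 158 and 168 CPM in WT), and 1 was higher without *rpb1-84* replicate 2. Aromatic amino acids had 4 of 17 lower and none higher, again with 1 higher without *rpb1-84* replicate 2. *TRP5*, tryptophan synthase, had 12.6 and 6.19 CPM in *rpb1-84*, against 73.9 and 74.8 CPM in WT (-3.11 ± 0.2). In sulfur amino acids the counts were 6 of 34 higher and 5 lower. *MET6*, methionine synthase, had 31.1 and 18.9 CPM in *rpb1-84*, against 158 and 162 CPM in WT. *SAH1*, also of this list, had 1263 and 1443 CPM in *rpb1-84*, against 386 and 336 CPM in WT. Arginine and proline genes had 3 of 21 lower and 2 higher, the higher ones being the proline oxidation genes *PUT1* (2.46) and *PUT2* (1.13). Some of these low levels were not particular to *rpb1-84*. In *rrp6∆*, *LYS20* had 138 and 113 CPM and *LEU4* 276 and 262 CPM, between *rpb1-84* and WT. In the libraries labelled *rpb4∆*, *LYS20* had 56.95 and 67.8 CPM and *LEU4* 186 and 183 CPM. *LYS1*, *LEU9*, *TRP5* and *MET6* were lower in *rpb1-84* than in any other strain. Each of them was also lower in *rrp6∆* and in the libraries labelled *rpb4∆* than in WT. *LYS1* had 376 and 409 CPM in *rrp6∆* and 114 and 122 CPM in *rpb4∆*. *MET6* had 75.3 and 69.8 CPM in *rrp6∆* and 68.9 and 72.8 CPM in *rpb4∆*.

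Purine synthesis had 8 of 22 rows higher and 4 lower (median 0.52). *ADE1* had 1023 and 1042 CPM in *rpb1-84*, against 219.8 and 232 CPM in WT (2.21 ± 0.082, edgeR adjusted p = 3.54e-15), and *ADE17* had a log2 fold change of 2.10. The 2 activators of these genes were among the lower rows, *BAS1* with 9.51 and 10.2 CPM in *rpb1-84*, against 61.3 and 63.8 CPM in WT (-2.63 ± 0.16) and *PHO2* with 1.68 and 0.826 CPM in *rpb1-84*, against 5.69 and 5.5 CPM in WT (-2.28 ± 0.48). Pyrimidine synthesis had 3 of 18 higher and 1 lower. Ergosterol synthesis had 8 of 29 higher and 6 lower, and *ERG20*, farnesyl pyrophosphate synthase, had 4.2 and 1.79 CPM in *rpb1-84*, against 38.2 and 34.1 CPM in WT (-3.76 ± 0.28). In fatty acid and phospholipid synthesis 5 of 38 were higher and 9 lower, with *OLE1*, the desaturase, at 81.4 and 48.4 CPM in *rpb1-84*, against 363 and 389 CPM in WT (-2.57 ± 0.15). Nitrogen catabolite genes had 10 of 33 higher and 4 lower. Among the higher ones, *OPT2* had 24.1 and 28.5 CPM in *rpb1-84*, against 5.05 and 5.5 CPM in WT (2.35 ± 0.24). Among the lower ones, *GAP1*, the general amino acid permease, had 2.24 and 1.79 CPM in *rpb1-84*, against 12.6 and 11.4 CPM in WT (-2.59 ± 0.34). The iron regulon had 3 of 30 higher and 4 lower, and the phosphate regulon 6 of 22 higher and 2 lower.

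The cell wall list had 14 of 61 rows higher and 14 lower (median 0.04), and its members spread widely. Besides *CWP2* and *UTH1*, *SCW4*, a wall glucanase-like protein, had 118 and 93.7 CPM in *rpb1-84*, against 1166 and 1209 CPM in WT (-3.49 ± 0.1). *SED1* (2.45), *PIR3* (2.42) and *RLM1*, a transcription factor of the cell wall integrity pathway (2.83), rose. *PIR1*, a wall protein, had 254 and 214 CPM in *rpb1-84*, against 198 and 177 CPM in WT (0.33, not called). In the cell cycle list 11 of 34 rows were lower and 2 higher (median -0.57). *RNR1*, the large subunit of ribonucleotide reductase, had 43.6 and 40.9 CPM in *rpb1-84*, against 279 and 299 CPM in WT (-2.76 ± 0.11), *RNR4*, a small subunit, had 2.24 and 0.963 CPM in *rpb1-84*, against 23.1 and 20.5 CPM in WT (-3.92 ± 0.34), and the G1 regulators *WHI5* and *SWI4* had log2 fold changes of -2.41 and -2.20.

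In the list that joins alpha cell genes with genes of the pheromone response, 6 of 12 rows were higher and 1 lower. The lower one was the receptor gene *STE3*, with 119.5 and 127 CPM in *rpb1-84*, against 256 and 253 CPM in WT (-1.02), which lay at the threshold and was not called without WT replicate 1 or *rpb1-84* replicate 1. *STE4*, the beta subunit of the pheromone G protein, had 219 and 219.6 CPM in *rpb1-84*, against 77.1 and 74.4 CPM in WT (1.55 ± 0.1). The alpha cell marker *SAG1* was not called (0.09), so the count of higher rows does not stand for a rise of the alpha cell markers. All 3 tested a cell genes were called higher, *BAR1* with 4.2 and 6.19 CPM in *rpb1-84*, against 0.632 and 1.83 CPM in WT, *STE2* with 7.28 and 4.82 CPM in *rpb1-84*, against 3.16 and 1.1 CPM in WT and *STE6* with 5.04 and 4.95 CPM in *rpb1-84*, against 3.16 and 1.1 CPM in WT. They were at a few counts in WT, and without WT replicate 2 only 1 of them was called. Only 3 of the 6 a cell genes passed the count filter, and they passed it through their *rpb1-84* counts. The direction of these calls was therefore largely set by the filter, and it says little about a cell genes as a group.

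In the remaining lists the counts were as follows, to be read against the same background shares. RNA polymerase I and III subunits had 3 of 23 rows higher and 3 lower, splicing 7 of 47 higher and 6 lower, and zinc and copper homeostasis 3 of 18 higher and 3 lower. Thiamine, biotin, NAD and B6 synthesis had 5 of 30 higher and 7 lower, serine, glycine and one-carbon metabolism 2 of 17 higher and 3 lower, and histidine synthesis 0 of 8 higher and 1 lower, or 2 lower without *rpb1-84* replicate 2. The pentose phosphate pathway had 3 of 15 higher and 2 lower, with 1 lower without WT replicate 2 or *rpb1-84* replicate 2. The glyoxylate cycle and gluconeogenesis had 4 of 19 higher and 1 lower, with 2 higher without WT replicate 1, and galactose genes had 1 of 6 higher. Drug transporters had 1 of 20 higher and 3 lower, with 2 higher without WT replicate 1. Meiosis and sporulation had 4 of 18 higher and none lower, with 1 lower without WT replicate 1 or *rpb1-84* replicate 2. Of the subtelomeric COS genes 1 of 3 was lower, and none without WT replicate 1 or *rpb1-84* replicate 2. The single PAU row tested was not called. These shares lie on both sides of the background.

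The second pair of strains, *rpb1-84 rrp6∆* against *rrp6∆*, asks what the same plasmid allele does in cells without Rrp6 and without the tag, and it shares no library with the comparison above. Far fewer protein-coding rows were called there, 110 higher (2.11%) and 101 lower (1.94%) of 5206, or 4.05% in all. Of the 779 rows higher in *rpb1-84*, 42 were also higher in the second pair (5.39% of the 779, and 40.0% of the 105 rows higher in the second pair among the same rows), and 2 were lower. Of the 795 rows lower, 27 were also lower (3.40%, and 40.3% of 67) and 13 were higher. Over the 4995 rows, the 2 log2 fold changes had a Pearson r of 0.324 and a Spearman rho of 0.355, given as a description across genes. The estimate in the second pair was positive for 83.8% of the rows higher in *rpb1-84*, where 64.8% of all rows were positive, and negative for 60.8% of the rows lower, where 35.2% of all rows were negative.

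Some genes were called in the same direction in both pairs. *ADE17* of purine synthesis had 334 and 348 CPM in *rpb1-84 rrp6∆*, against 97.1 and 108 CPM in *rrp6∆* (log2 fold change 1.87), and *ADE1* had 324 and 289 CPM in *rpb1-84 rrp6∆*, against 134 and 129 CPM in *rrp6∆* (1.36). *AMS1* had 10.6 and 10.9 CPM in *rpb1-84 rrp6∆*, against 3.93 and 3.04 CPM in *rrp6∆* (1.75), and *CWP2*, though still well counted, was lower (-1.61). Others went opposite ways. *ANB1*, a hypoxic translation factor gene, had 20.4 and 16.1 CPM in *rpb1-84*, against 5.05 and 3.67 CPM in WT, and 1.64 and 2.56 CPM in *rpb1-84 rrp6∆*, against 8.03 and 9.85 CPM in *rrp6∆*. *ARO3* of aromatic synthesis and *IDP1*, an isocitrate dehydrogenase, fell in *rpb1-84* (-1.84 and -2.23) and rose in the second pair (1.20 and 1.31).

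The difference between the 2 effects was tested as an interaction in edgeR over the 8 libraries. At the same thresholds, the effect in the *RRP6* background was called the higher one in 725 of 5206 rows (13.9%). It was called the lower one in 734 (14.1%). For *UTH1* the difference was -6.94 ± 0.18 on the log2 scale, for *RPL41A* -6.41 ± 0.17 and for *CBF5* 3.42 ± 0.16. These genes were chosen for their change in *rpb1-84* against WT, which is a part of this difference, so the values are a description. Between the pairs differ the presence of Rrp6, the tag on *RPB4* and the experiment in which the *rpb1-84* libraries were made, and these cannot be told apart.

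**Figure D4:**
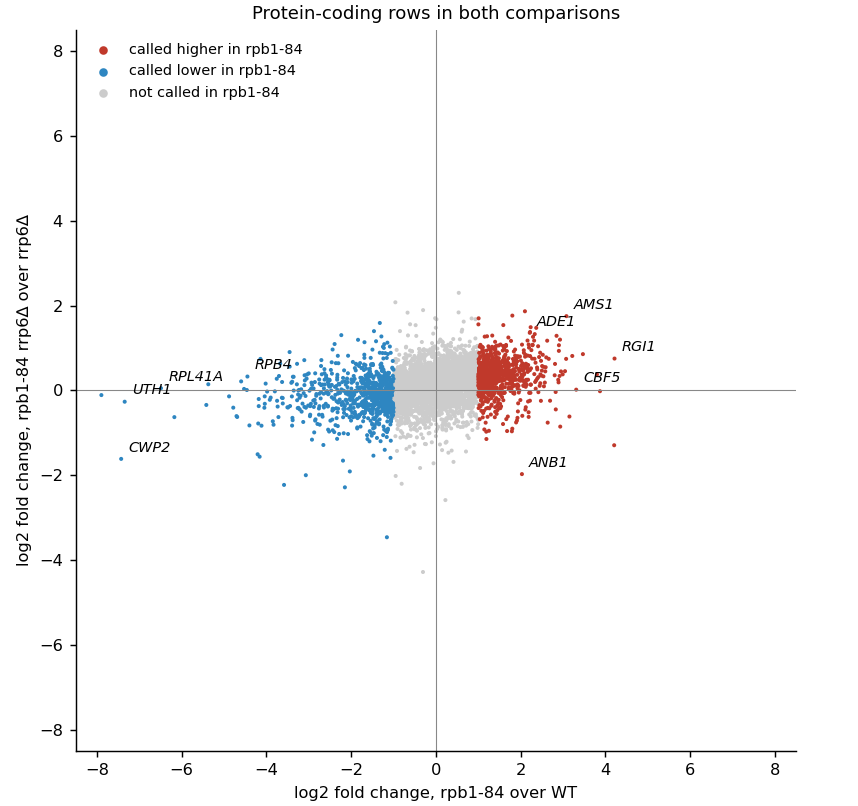
Log2 fold change of *rpb1-84* over WT (x axis) and of *rpb1-84 rrp6∆* over *rrp6∆* (y axis) for 4995 protein-coding rows, 1 point per row, with red and blue for rows called higher and lower in *rpb1-84*. The cloud is much wider along the x axis than along the y axis, and *UTH1* and *RPL41A* lie far to the left near 0 on the y axis.

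Coding length and level were related weakly to the change. The median log2 fold change was 0.142 in the rows with the shortest coding sequences (78 to 690 bases) and -0.229 in those with the longest (2190 to 14733 bases), out of 5 groups of about equal size, and the share of rows called lower was 12.3% in the shortest group and 22.2% in the longest. By level, likewise in 5 groups, the lowest had a median of -0.259 and the highest 0.115. The longest group had a lower median than the shortest at each of the 5 levels, from -0.62 against -0.07 at the lowest level to -0.08 against 0.07 at the highest. By chromosome the medians ran from -0.121 on XV to 0.39 on I, and no chromosome had rows changed in 1 direction only. Across all adjacent genes, the log2 fold changes of neighbours had a Pearson r of 0.0851 over 1255 divergent, 0.0232 over 1252 convergent and 0.0147 over 2173 tandem pairs, as a description across genes.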

How the data were processed

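The data are 10 libraries of 3′ mRNA tags (QuantSeq) from 5 yeast strains, 2 independent cultures each. The authors trimmed and mapped the reads (FastQC, Fastx Clipper, HISAT2) on the R64 build and deposited raw counts per annotated feature from featureCounts. Versions, the strand setting and the handling of reads shared by features are not given in the sources used here. The study tested its tables with DESeq2.

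Counts were tested as deposited with edgeR 4.0.16 (limma 3.58.1, R 4.3.3): TMM factors, filterByExpr and glmQLFTest on the 4 libraries, with Benjamini-Hochberg adjustment over all 7317 features tested. A row was called at a change above 2-fold and an adjusted p below 0.1. The second pair of strains and the interaction were tested with the same steps, both from 1 fit over the 8 libraries of the 2 pairs. Levels are CPM of the library total, 2727771 to 7268211 counts in the 4 libraries. Whether molecular identifiers were used is not given in the sources used here. Of the 4995 rows tested, 269 name more than 1 feature. On simulated counts of 7115 features the fit called 99% of changes of 1.5 on the log2 scale and 100% of changes of 3. It made 4 false calls. For the interaction (9070 features) the shares were 85% and 100%, with 6 false calls. Only 98 and 99 features were changed at these sizes (100 and 99 for the interaction), far fewer than were called in the data. No difference of experiment was simulated, so the simulation does not check the calls made here.

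Genes were named by a rule: the 12 largest increases and 12 largest decreases among called rows with at least 100 counts and no overlap between strains, up to 3 called members per list, and the genes of the genotypes, the study's text and the mating type markers. Not every gene that the rule takes is reported here. *ADE17*, *HHT2*, *HSP42*, *NPA3*, *PGK1*, *PIR3*, *PRE10*, *PUP2*, *PUT2*, *RAT1*, *RLM1*, *RPB5*, *RPL15B*, *RPN1*, *RPN4*, *RPS28A*, *RSC8*, *SED1*, *SKN7*, *SNF5*, *SWI4* and *YSH1* were chosen after their values were seen, as were the 500-base promoter window, the sequences shown and the lists drawn or given interaction counts. The comparison, the 52 lists and the rule were chosen with earlier results of these data known. The *rpb4∆* libraries were first set aside and were taken in, for levels and correlations, after their values had been seen. Replicate numbers did not pair the samples, since the deviations of same-numbered libraries from their strain means correlated between -0.0298 and 0.0488. The alternatives were DESeq2 1.42.0, other scalings, no filter, 8 libraries fitted together, the replicate number as a block and each library left out. R64 sequences were extracted in Python 3.11.15 (with pandas 2.3.3 on numpy 2.4.6) and matplotlib 3.10.9 drew the figures.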

Additional observations from a re-analysis of the deposited data

Results flagged for a closer look

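By the interaction test in edgeR, at the same thresholds, the effect of *rpb1-84* was called higher with *RRP6* in 725 protein-coding rows. It was called lower with *RRP6* in 734. The 24 genes with the largest changes in *rpb1-84* against WT were chosen on a part of this difference, so their values are a description. On the log2 scale it was 3.59 for *RGI1*, 3.55 for *MNN4*, 2.75 for *CSN9*, 3.42 for *CBF5*, 2.54 for *JAC1*, 3.89 for *DIA1*, 1.46 for *AMS1*, 2.46 for *YHR112C*, 2.73 for *HSP30*, 2.74 for *RPN2*, 2.63 for *LAM6* and 3.92 for *CPP3*. The value for *AMS1* was 2.22 without WT replicate 1. Among the decreases it was -5.69 for *CWP2*, -6.94 for *UTH1*, -6.41 for *RPL41A*, -5.42 for *CDC14*, -4.61 for *RPN8*, -4.25 for *DID4*, -3.97 for *BUD17*, -4.68 for *RNH70*, -4.35 for *YUR1*, -4.64 for *RPB4*, -3.68 for *HEM3* and -4.75 for *GPN2*.

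Among the named genes called in opposite directions in the 2 pairs, the difference was 4.13 (*ANB1*), -3.40 (*IDP1*) and -2.90 (*ARO3*). Of the genes of the genotypes, the study's text and the mating type, the difference was -2.55 for *RPB7*, -3.27 for *LYS20*, 2.85 for *BAR1*, 2.15 for *STE2*, -1.21 for *RPO26* and 1.32 for *RRP6*. *RPB7*, *BAR1* and *STE2* rest on few counts, *RPB7* was -7.59 without *rpb1-84* replicate 2, and *BAR1* was no longer called without *rrp6∆* replicate 1.

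By list, only rows were counted whose interaction was above 2-fold in either direction with an adjusted p below 0.1 in edgeR. Rows short of these thresholds can have either sign. The interaction was called above 0 in 11 and below 0 in 3 of the 40 proteasome rows. In the mitochondrial ribosomal rows it was called above 0 in 17 and below 0 in 5. It was called above 0 in 0 and below 0 in 17 of the 44 rows of the respiratory chain. For arginine, ornithine and proline it was called above 0 in 2 rows and below 0 in 11. For chromatin remodelling the calls were 4 above and 12 below 0, and for the large ribosomal subunit 3 above and 16 below 0. Over all rows the shares called were 13.9% above and 14.1% below 0. The presence of Rrp6, the tag and the experiment differ together between the pairs and cannot be told apart.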

How the results depend on the processing

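Over all alternatives the rows higher in *rpb1-84* numbered 735 to 976 and the rows lower 732 to 825, the called rows of the lists 486 to 518, and the interaction calls 1362 to 1530. The median log2 fold change of protein-coding rows, 0.020, was 0.0646 with DESeq2, -0.0135 with TMM from protein-coding rows, 0.0572 with no filter, -0.000654 with total counts, 0.145 with 8 libraries fitted together, and 0.0342 to 0.0657 with 1 library left out. The difference in median between the longest and shortest coding sequences ran from -0.41 to -0.342 with 1 library left out.

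With the replicate number as a block, 780 rows were higher and 797 lower, 772 and 789 of them called without it, and of the list counts 1 moved by over 1.5 times, the cell cycle rows higher (1, against 2 without the block).

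Of the 1144 list counts recomputed, 27 rose and 26 fell by over 1.5 times. With DESeq2 the members higher were 3 for termination, 1 for the a-cell genes, 3 for the small and 5 for the large ribosomal subunit, and the members lower were 0 for redox, 1 for the pentose phosphate pathway, 0 for alpha cell genes and 0 for COS genes. With no filter the members higher were 3 for termination, 3 for the small and 5 for the large ribosomal subunit, and the members lower 1 for the pentose phosphate pathway and 0 for alpha cell genes. With 8 libraries fitted together the members higher were 4 for termination, 1 each for branched-chain, aromatic and histidine synthesis, 4 for the cell cycle, 4 for the small and 5 for the large ribosomal subunit, and the members lower 3 for the TCA cycle, 0 for hexose transport, 1 for the pentose phosphate pathway, 2 for iron and 0 for alpha cell genes. Cell cycle members higher were 1 with TMM from protein-coding rows and 1 with total counts. With 1 library left out, the members called ran from 0 to 1 for Aromatic amino acids, higher, from 0 to 1 for Branched-chain amino acids, higher, from 0 to 1 for COS genes, lower, from 3 to 5 for Cytosolic ribosomal proteins, large subunit, higher, from 1 to 4 for Cytosolic ribosomal proteins, small subunit, higher, from 1 to 2 for Drug transporters and Pdr targets, higher, from 2 to 4 for Glyoxylate cycle and gluconeogenesis, higher, from 8 to 13 for Heat shock proteins and chaperones, higher, from 0 to 2 for Hexose transport and glucose sensing, lower, from 1 to 2 for Histidine biosynthesis, lower, from 1 to 3 for MATa-specific, higher, from 0 to 1 for MATalpha-specific and pheromone response, lower, from 0 to 1 for Meiosis and sporulation, lower, from 1 to 4 for Nrd1-Nab3-Sen1 and CTD-linked termination, higher, from 0 to 1 for Oxidative stress and redox, lower, from 1 to 2 for Pentose phosphate pathway, lower.

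*NRD1* turned to -0.0184 with TMM from protein-coding rows, -0.0146 with the block, -0.00441 with total counts and -0.243 without *rpb1-84* replicate 2, in a range of -0.243 to 0.252 with 1 library left out. Of the differences between the 2 effects, *NAB3* turned to -0.00146 with DESeq2, and with 1 library left out *NRD1* ran from -0.0254 to 0.513, *NAB3* from -0.222 (-0.0124 without another library) to 0.122, *SEN1* from -0.150 to 0.0313 and *PIR1* from -0.0139 to 0.225. Of 159 named genes called, 8 lost the call in some alternative (*OYE3*, *NQM1*, *URA6*, *STE2*, *STE6*, *IME2*, *COS111* and *STE3*). The list medians changed sign in 9 of 52 lists. The cause was not tested. Counts under about 10 per library, as in *RPB7* and the a-cell genes, limit what these libraries can show.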
